A study of Mus musculus with 2 samples.

Results

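Migratory dendritic cells of the mouse colon were taken as the cells with at least 1 UMI (a unique molecular identifier, which marks 1 captured RNA molecule) of Ccr7, at least 1 of Fscn1 and at least 1 of Cacnb3, Apol7c, Ccl22, Il4i1 or Nudt17. Members also held no UMI of the T cell gene Cd3e or the B cell gene Cd79a, and at most 1 UMI over the macrophage genes C1qa, C1qb and C1qc. Cells with 200 to 6000 detected genes and at most 15% mitochondrial UMIs were kept, 20052 of 21921 deposited cells. In all, 220 of the 20052 kept cells met the rule, 167 of 11885 in the Runx3_fl library and 53 of 8167 in the Runx3 library. They were set beside 859 and 524 cells that held a Flt3 UMI and none of Fscn1, under the same Cd3e, Cd79a and C1q limits. Every cell was therefore chosen by measured UMIs, so the levels of the rule genes and all contrasts between members and Flt3-positive Fscn1-negative cells are descriptions of the chosen cells and carry no test.

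The study asked how the transcription factor RUNX3 affects macrophages of the colon, and compared mice whose floxed Runx3 alleles are deleted by Lyz2-Cre with floxed littermates that carry no Cre. Lyz2-Cre acts in myeloid cells, the mice were C57BL/6, and the study describes each single-cell library as a pool of 8 week old male mice. The sample titles name Runx3_fl and Runx3 and state no Cre, so the libraries are called by these labels throughout. Immune cells were isolated from the colon over a Percoll gradient, with gut lamina propria and cd11b+ as labels, and 3' single-cell libraries were made on the 10x Genomics platform. With 1 library per label there is no replicate, so no p-value is given between libraries, and intervals cover counting error only.

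Dendritic cells take up antigen in the gut wall and, once activated, switch to a mature state in which the chemokine receptor CCR7 guides them along lymphatic vessels to the draining lymph node. In that state they present antigen with costimulatory molecules to T cells, while uptake of new antigen and expression of many subset-specific genes are lower. Fascin, encoded by Fscn1, bundles actin filaments in the long processes of mature dendritic cells.

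Migratory dendritic cells made up 1.41% (exact binomial 95% interval 1.20 to 1.63) of kept cells in library Runx3_fl and 0.649% (0.486 to 0.848) in library Runx3. As a share of members plus Flt3-positive Fscn1-negative cells they were 16.3% (14.1 to 18.7) and 9.19% (6.96 to 11.8). Both shares were lower in library Runx3, and neither pair of intervals overlapped, but the spread between mice or between preparations cannot be read from 2 libraries. Members held a median of 12345 UMIs (751 to 41537) in library Runx3_fl and 10219 (1569 to 20290) in library Runx3. The Flt3-positive Fscn1-negative cells were deeper, at medians of 15524 and 12198 UMIs. Summed over cells, the members held 2061232 and 520726 UMIs. The gate needs UMIs of 3 genes, so it depends on depth. Among cells thinned to 5000 UMIs before the gate, members were 1.46% (1.23 to 1.72) and 1.13% (0.845 to 1.49) of cells, with overlapping intervals. Of members plus Flt3-positive Fscn1-negative cells they were 22.3% (19.1 to 25.7) and 14.7% (11.1 to 18.8). Without cells carrying UMIs of other lineages, the latter shares were 16.7% (14.2 to 19.5) and 12.4% (8.58 to 17.1), which also overlapped. No member barcode occurred in both libraries, although 27 kept barcodes did.

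Some of the cells went against the description of the mice. Of the 167 members of library Runx3_fl, 42 held a UMI of Xist, the RNA that coats the inactive X chromosome of females. Of these, 34 held no UMI of the Y-linked genes Ddx3y, Eif2s3y, Kdm5d and Uty, and 8 held at least 1. A Y-linked UMI without Xist was present in 110 of the 167. In library Runx3, 45 of 53 members held a Y-linked UMI and 0 held Xist. The same held beyond the members, with 2756 of 11885 kept cells of library Runx3_fl holding Xist alone and 0 of 8167 in library Runx3. Library Runx3_fl therefore held Xist-positive and Y-positive cells side by side, and sex and label cannot be told apart between the libraries over all cells. With cells that held a Y-linked UMI and no Xist UMI alone, members were 1.56% and 0.743% of kept cells. Itgam, which encodes the CD11b of the sample label, was detected in 9.58% and 7.55% of members and in 33.8% and 60.5% of Flt3-positive Fscn1-negative cells.

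The lineage of the members was checked against genes the rule did not use. A UMI of Flt3, the receptor that dendritic cells need to develop, or of Zbtb46, a transcription factor of conventional dendritic cells, was present in 157 of 167 members in library Runx3_fl and 48 of 53 in library Runx3. Both class II genes H2-Ab1 and Cd74 were detected in 152 and 53 members. Zbtb46 stood at 387 and 348 CPM (UMIs of a gene scaled to a total of 1000000 UMIs summed over the cells) against 139 and 105 CPM in Flt3-positive Fscn1-negative cells. Flt3 itself was at 333 and 305 CPM in members, although the rule did not ask for it there, and at 152 and 171 CPM in the cells chosen for holding it. Itgax, which encodes CD11c, was lower in members, at 32.5 and 34.6 CPM against 133 and 170 CPM.

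Markers of other cells were also present in members. In library Runx3, plasma cell markers were held by 53 of 53 members, neutrophil markers by 48 and macrophage and monocyte markers by 46. In library Runx3_fl they were held by 161, 17 and 109 of 167. T cell markers (12 genes) summed to 63.6 and 40.3 CPM in members and 67.2 and 54.3 CPM in Flt3-positive Fscn1-negative cells. Macrophage and monocyte markers (14 genes, all detected) summed to 207 and 615 CPM against 871 and 2414 CPM. Neutrophil markers (10 genes) summed to 121 and 275 CPM in members and to 86.8 and 3369 CPM in Flt3-positive Fscn1-negative cells. More than 2 UMIs of S100a8 and S100a9 together were held by 2 of 167 and 17 of 53 members, and by 13 and 203 of the Flt3-positive Fscn1-negative cells. Plasma cell markers summed to 286 and 718 CPM, B cell markers to 5.82 and 19.2 CPM, natural killer cell markers to 363 and 190 CPM, mast cell and basophil markers to 76.7 and 36.5 CPM, epithelial and stromal markers to 169 and 49.9 CPM, and erythroid markers to 0.485 and 1.92 CPM. The macrophage, neutrophil, B and plasma cell sums were thus higher in the members of library Runx3. T cell, natural killer, mast and stromal sums were higher in those of library Runx3_fl. Epithelial and stromal markers were held by 45 of 167 and 14 of 53 members, and reached 1.08% of the UMIs of 1 member of library Runx3_fl. The part of all these genes in the differences between libraries was not tested beyond the settings given with each result.

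Runx3, the gene the study deleted, encodes a transcription factor of lymphoid and myeloid cells. It was at 181 CPM (163 to 200) in members of library Runx3_fl and 177 CPM (142 to 217) in those of library Runx3, a log2 ratio of library Runx3 over Runx3_fl of -0.03 with a counting interval of -0.38 to 0.30. The intervals overlapped. A 3' count does not show whether floxed exons are present, so this does not check the deletion. Lyz2, the gene of the study's Cre driver, was at 62.1 and 19.2 CPM in members, with a UMI in 33 of 167 and 10 of 53. Whether Cre acted in members was not tested. Runx3 was at 195 and 226 CPM in Flt3-positive Fscn1-negative cells. Runx1 was lower in members, at 206 and 92.2 CPM against 1098 and 1438 CPM, and Runx2 was at 449 and 288 CPM against 191 and 206 CPM. Of the genes the study followed in macrophages, Nr4a1 was lower in members, at 95.6 and 165 CPM against 229 and 433 CPM, and Zfp36 was at 565 and 1429 CPM against 673 and 1313 CPM.

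The promoters of genes that stood higher in members were read for the site that NF-kB dimers bind. This was done because NF-kB signalling through RelB and its partner, encoded by Nfkb2, is known to drive dendritic cell maturation. RefSeq promoter windows (250 bases before to 50 after the start, build GRCm38.p6) were searched on both strands for GGGNNTTTCC, GGGNNTTCCC and GGGNNTTCC, where N is any base and the short form overlaps the others. Of 27025 genes with a window, 1.89%, 2.01% and 6.58% held these forms, and 7.93% held any. Of the 22 genes of a list of NF-kB pathway members and inhibitors, 18 had a window and 11 of those held a form. Of the 538 genes higher in members in both libraries (below), 419 had a window and 10.7% held a form, beside 10.6% of the 5981 genes with a window among those past the filter on low values. By form, the first was held by 3.82% of the former and 2.19% of the latter. The second was held by 3.34% and 2.98%, and the short form by 9.07% and 9.13%. Over all forms the shares were close, and 0 of the 6 rule genes with a window held them. The 4 windows shown are those of 3 NF-kB pathway genes higher in members in both libraries, Nfkb2 (chr19:46304487-46304786, plus strand), Traf3 (chr12:111166120-111166419, plus strand) and Tnip1 (chr11:54962891-54963190, minus strand), and of Gm10851 (chr2:11521392-11521691, plus strand), the single match among the 15 genes with the largest ratios. Also matched but not shown were Birc2, another NF-kB pathway gene higher in members in both libraries, and other windows of Nfkb2. Capitals mark the matches, and a match is a description of the letters, not evidence of binding.
Nfkb2: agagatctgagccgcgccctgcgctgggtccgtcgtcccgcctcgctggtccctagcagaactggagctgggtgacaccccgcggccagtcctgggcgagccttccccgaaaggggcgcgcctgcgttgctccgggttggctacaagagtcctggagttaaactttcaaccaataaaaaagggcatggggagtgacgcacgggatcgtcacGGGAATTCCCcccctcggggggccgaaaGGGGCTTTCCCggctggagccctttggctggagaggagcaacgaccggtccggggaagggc
Traf3: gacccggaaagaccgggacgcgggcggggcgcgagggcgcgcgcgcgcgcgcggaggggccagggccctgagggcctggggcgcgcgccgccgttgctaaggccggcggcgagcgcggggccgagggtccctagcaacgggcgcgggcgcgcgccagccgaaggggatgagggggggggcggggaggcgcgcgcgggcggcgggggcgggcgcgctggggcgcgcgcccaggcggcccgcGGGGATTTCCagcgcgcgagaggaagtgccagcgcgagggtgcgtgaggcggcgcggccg
Tnip1: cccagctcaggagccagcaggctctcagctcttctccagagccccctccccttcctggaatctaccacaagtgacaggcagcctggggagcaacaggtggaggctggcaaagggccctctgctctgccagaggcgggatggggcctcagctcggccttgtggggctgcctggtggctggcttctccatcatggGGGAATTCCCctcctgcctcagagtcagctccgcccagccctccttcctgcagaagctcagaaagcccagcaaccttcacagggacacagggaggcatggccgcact
Gm10851: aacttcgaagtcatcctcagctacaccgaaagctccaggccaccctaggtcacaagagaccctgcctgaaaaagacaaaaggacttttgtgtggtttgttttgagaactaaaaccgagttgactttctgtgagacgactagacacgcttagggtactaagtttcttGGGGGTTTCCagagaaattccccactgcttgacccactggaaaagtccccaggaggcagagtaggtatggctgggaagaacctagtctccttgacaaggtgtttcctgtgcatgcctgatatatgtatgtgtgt

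The rule genes set the range within which the members varied. Ccr7 was at 3067 CPM in members of library Runx3_fl and 2980 CPM in those of library Runx3, with a median of 33 UMIs per cell (1 to 146) and 23 (2 to 107). Fscn1 was at 1394 and 1632 CPM, with a median of 12 UMIs per cell in both libraries. Ccl22, a chemokine that attracts CCR4-positive T cells, was at 1020 and 1556 CPM but was uneven among cells, from 0 to 197 and 0 to 174 UMIs around medians of 3 and 4. Cacnb3, a calcium channel subunit, was at 325 and 415 CPM, and Il4i1, a secreted amino acid oxidase, at 370 and 440 CPM. Il4i1 overlaps Nup62 on the same strand, which had 126 UMIs in members. Apol7c was at 330 and 248 CPM and Nudt17 at 65.0 and 48.0 CPM. In Flt3-positive Fscn1-negative cells Ccr7 was at 432 and 275 CPM and Ccl22 at 74.7 and 51.4 CPM. Of the 5 genes of which 1 was required, all 5 were detected in 19 and 5 members and a single one in 17 and 6.

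**Figure D1:**
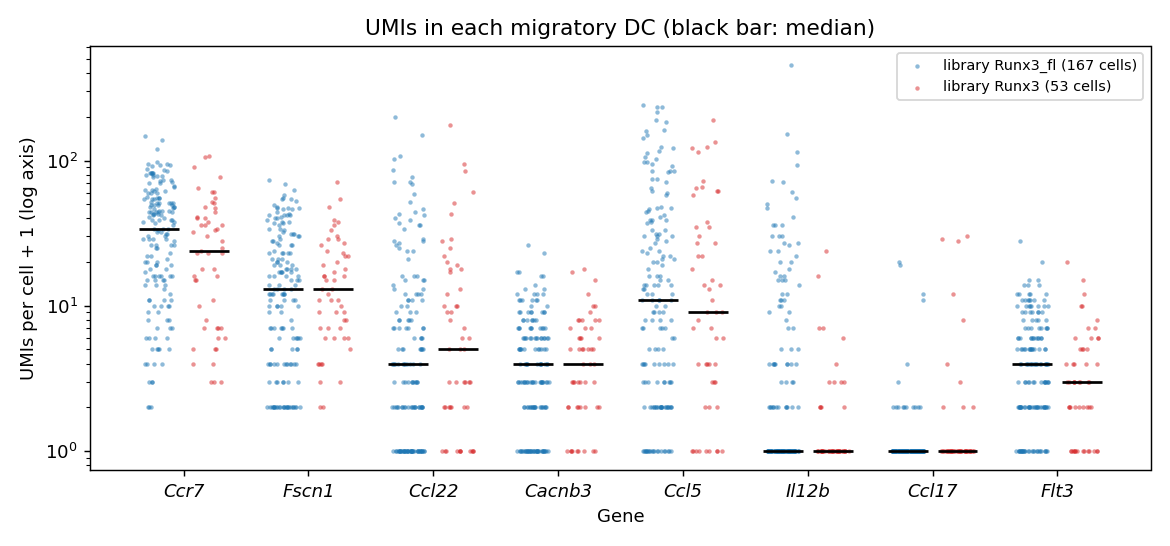
UMIs per migratory dendritic cell plus 1, on a log axis, for 8 genes. Each point is a cell, blue for the 167 members of library Runx3_fl and red for the 53 of library Runx3, and black bars are medians. Ccr7 and Fscn1 are above 0 in every member by the rule, while Il12b and Ccl17 have a median of 0 and a few cells with many UMIs.

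The cells that missed the rule by Fscn1 alone, 456 and 173, had Ccr7 at 1127 and 1113 CPM, Ccl22 at 288 and 331 CPM, and Relb, an NF-kB subunit, at 257 and 268 CPM. Inside the rule, the 26 members of library Runx3_fl with a single UMI of Ccr7 or Fscn1 had Ccr7 at 1588 CPM, Ccl22 at 343 CPM and Relb at 390 CPM. All members of that library had Relb at 635 CPM. In library Runx3 the 2 such members had Ccr7 at 6179 CPM and Relb at 930 CPM, above the 2980 and 832 CPM of all its members. Another 14 and 9 cells missed the rule only by lacking the 5 genes, with Ccr7 at 441 and 540 CPM. Cd3e alone left out 11 and 2 cells, Cd79a 1 and 8, the C1q limit 9 and 6, and Ccr7 3 and 7.

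Of 32285 genes, 7489 passed a filter of 10 CPM on average over the 4 sums. Among these, 538 (7.18%) were at least 2-fold higher in members than in Flt3-positive Fscn1-negative cells in both libraries, and 1008 (13.5%) were at least 2-fold lower in both, while 13 passed 2-fold in opposite directions. The median ratio of all 7489 genes was below 0, at -0.23 and -0.27 on the log2 scale in libraries Runx3_fl and Runx3. With ratios centred on that median, 720 genes were higher and 660 lower, so the split between higher and lower rests on the scaling. All log2 ratios are of CPM plus 1. The 15 genes with the largest ratios outside the rule are given first.

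Socs2, which encodes a suppressor of cytokine signalling, came first when genes were ranked by the smaller of their 2 ratios. It was at 509 CPM (exact Poisson 95% interval 479 to 541) and 384 CPM (333 to 441) in members and at 10.2 and 4.62 CPM in Flt3-positive Fscn1-negative cells, a log2 ratio of 5.50 and 6.10. In cells thinned to 5000 UMIs, Socs2 was detected in 70.4% and 66.7% of members, 3.44% and 2.54% of Flt3-positive Fscn1-negative cells, and 3.99% and 6.35% of T cells, a group used to gauge free RNA. Cd200, a surface ligand that restrains myeloid cells through its receptor, was at 314 and 361 CPM against 7.60 and 7.31 CPM, and thinned detection was 61.8% and 60% against 2.70% and 3.0%. Slco5a1, a transporter of the organic anion family, was at 153 and 92.2 CPM against 2.58 and 0.895 CPM. Cd63, a tetraspanin of late endosomes and exosomes, was at 625 and 964 CPM against 20.9 and 31.8 CPM. Fabp5, a fatty acid binding protein, was the most abundant of the 15, at 1777 and 1767 CPM against 87.2 and 87.4 CPM, a log2 ratio of 4.33 and 4.32. Mreg, which encodes melanoregulin, a protein of lysosome-related organelles, was at 767 and 941 CPM against 47.7 and 45.8 CPM. All 6 genes stood higher in the members of each library.

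The rest of the 15 spanned membrane, signalling and unnamed transcripts. Adcy6, an adenylyl cyclase, had log2 ratios of 4.78 and 5.97 in libraries Runx3_fl and Runx3, and the transporters Slc22a23 and Slc44a5 had 4.78 and 4.85 and 4.18 and 4.60. Strip2, a subunit of a phosphatase and kinase complex, was at 244 and 292 CPM (log2 ratio 3.86 and 4.86). Col27a1, a fibrillar collagen, was at 130 and 129 CPM (3.74 and 4.35), and Arhgap28 at 244 and 181 CPM (3.79 and 3.70). Pakap was at 205 and 184 CPM (3.86 and 4.86), and it overlaps Akap2 and Palm2, whose UMIs in members were not determined. The unnamed transcripts 1810064F22Rik (4.85 and 6.46) and Gm10851 (3.88 and 4.96) complete the set.

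**Figure D2:**
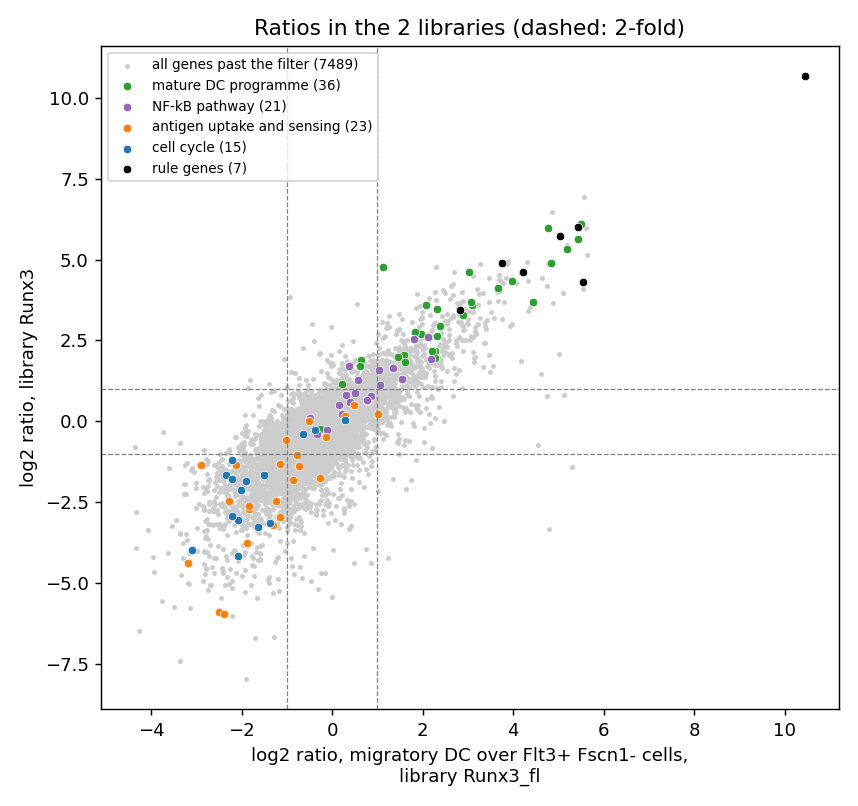
Log2 ratio of CPM plus 1 in members over Flt3-positive Fscn1-negative cells, library Runx3_fl on the horizontal and library Runx3 on the vertical axis, for 7489 genes. Colours mark 5 gene groups and dashed lines mark 2-fold. Mature dendritic cell genes (green) lie at the upper right, cell cycle (blue) and uptake and sensing genes (orange) at the lower left, and the point farthest up is Fscn1, which the rule set to 0 in the cells compared.

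Most genes of a list known from mature dendritic cells were higher in members. Of 39 such genes, 36 passed the filter and 31 were at least 2-fold higher in both libraries, with 0 lower, beside 7.18% of all genes. The median log2 ratio was 2.16 and 2.71 in libraries Runx3_fl and Runx3. The list holds no rule gene, but it was drawn up from genes known to mark these cells, with earlier results of these data known. The count therefore describes the chosen genes and carries no test. The list holds Socs2, Slco5a1, Cd63, Adcy6 and Mreg, named above for their ratios, and shares Relb, Nfkb2, Birc3 and Traf1 with the NF-kB list. Tmem123, a surface glycoprotein, was at 1306 and 1763 CPM against 154 and 136 CPM. Tbc1d4, which controls vesicle traffic, was at 1858 and 1867 CPM against 250 and 191 CPM. Samsn1, a signalling adaptor, was at 2332 and 1842 CPM against 508 and 408 CPM. Stat4, the transcription factor downstream of interleukin 12, was at 1059 and 1097 CPM against 201 and 140 CPM. The protease inhibitor Serpinb6b, at 612 and 438 CPM against 74.7 and 17.0 CPM, and Serpinb9, a granzyme B inhibitor, at 1032 and 626 CPM against 244 and 50.6 CPM, had larger ratios in library Runx3, where the level in Flt3-positive Fscn1-negative cells was lower. Nr4a3, an immediate early nuclear receptor, was at 1553 and 1897 CPM against 567 and 481 CPM.

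Of 21 NF-kB pathway genes that passed the filter, 7 were at least 2-fold higher in both libraries and 0 lower, beside 7.18% and 13.5% of all genes, with median log2 ratios of 0.58 and 0.82. Relb was at 635 and 832 CPM against 180 and 141 CPM, and thinned detection was 89.5% and 93.3% of members against 51.4% and 39.5%. Its partner Nfkb2 was at 228 and 307 CPM against 88.7 and 97.4 CPM. The adaptors Traf1 (715 and 1025 CPM against 349 and 339 CPM) and Traf3 (1861 and 1350 CPM against 406 and 355 CPM), the ubiquitin ligase Birc2 (351 and 382 CPM against 79.9 and 62.6 CPM), the kinase Ikbkb (446 and 371 CPM against 151 and 148 CPM) and the inhibitor Tnip1 (340 and 227 CPM against 163 and 103 CPM) were the other 5. The classical subunits Rel and Nfkb1 differed less, with log2 ratios of 0.51 and 0.86 for Rel and 0.22 and 0.21 for Nfkb1. Nfkbia, an inhibitor that NF-kB induces, had 0.86 and 0.79. Map3k14, the kinase of the alternative branch, differed between the libraries, at 0.37 and 1.72.

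Of 16 costimulatory and checkpoint ligands, 8 were at least 2-fold higher in both libraries and 3 lower, beside 7.18% and 13.5% of all genes. Cd40, which receives help from T cells, was at 733 and 663 CPM against 166 and 109 CPM. Cd274, which encodes PD-L1, was at 1959 and 1304 CPM against 748 and 389 CPM, and Pdcd1lg2, which encodes PD-L2, was at 182 and 188 CPM against 84.2 and 21.6 CPM. Pvr was at 288 and 252 CPM against 64.2 and 73.5 CPM, and the death receptor Fas at 120 and 150 CPM, with log2 ratios of 1.80 and 2.27. Cd70 (log2 ratio 4.37 and 3.52) and Tnfsf4, which encodes OX40 ligand (1.99 and 3.21), were at low levels, and 1 cell held 68.4% of the Tnfsf4 UMIs of library Runx3. The B7 genes differed less: Cd80 was at 513 and 257 CPM against 244 and 156 CPM, and Cd86 at 1141 and 722 CPM against 967 and 795 CPM. Cd83 was at 1028 and 1417 CPM against 890 and 637 CPM, which passed 2-fold in library Runx3 alone. Havcr2, which encodes TIM-3, was lower in members, at 37.8 and 9.60 CPM against 263 and 173 CPM, as was Cd48 at 21.3 and 17.3 CPM against 101 and 112 CPM.

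Among cytokines and their receptors, 9 of 24 were at least 2-fold higher in both libraries and 3 lower, the latter near the 13.5% of all genes (7.18% were higher). Il15 and Il15ra, the cytokine and the receptor chain that presents it, were at 86.4 and 133 CPM and at 142 and 131 CPM, against 32.2 and 47.7 CPM and 16.0 and 11.5 CPM. Il2ra was at 142 and 181 CPM against 25.1 and 9.84 CPM, and Il7r at 83.0 and 194 CPM against 29.2 and 25.8 CPM. Tnfrsf4, which encodes OX40, had log2 ratios of 4.63 and 4.42 from 67.4 and 65.3 CPM. Ebi3, a subunit of interleukins 27 and 35, was at 260 and 92.2 CPM against 39.6 and 29.1 CPM. Il12b, the p40 subunit of interleukins 12 and 23, was at 899 and 134 CPM against 323 and 12.5 CPM, and 1 cell held 24.4% of its UMIs in library Runx3_fl and 32.9% in library Runx3. Il10 was lower, at 3.88 and 1.92 CPM against 12.8 and 31.2 CPM, as were the receptor genes Csf1r and Ifngr1, the latter at 70.8 and 34.6 CPM against 176 and 158 CPM. Tnf, at 249 and 271 CPM against 107 and 159 CPM, passed 2-fold in library Runx3_fl alone.

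Among chemokines, 3 of 11 were at least 2-fold higher in both libraries and 1 lower, and among chemokine receptors other than Ccr7 1 of 9 was higher and 4 lower. Over all genes 7.18% were higher and 13.5% lower, so the single lower chemokine and the single higher receptor were near the background. Ccl5 was the most abundant chemokine outside the rule, at 2555 and 2769 CPM against 349 and 171 CPM, with a per-cell median of 10 UMIs (0 to 240) and 8 (0 to 190). Cxcl16 was at 622 and 661 CPM against 240 and 235 CPM. Ccl17, a CCR4 ligand like Ccl22, was at 35.4 and 211 CPM against 15.8 and 6.86 CPM. In cells thinned to 5000 UMIs, Ccl17 was detected in 12 of 100 and 7 of 33 members with Ccl22, and in 0 of 52 and 0 of 12 members without it, where 0 of 12 could not show a share as low as that seen beside Ccl22. The receptor Cxcr5, which guides cells to B cell follicles, was higher at 32.5 and 21.1 CPM against 2.31 and 5.96 CPM, though in library Runx3 its log2 ratio of 1.67 turned to -0.18 in cells thinned before the gate and to -0.08 against every Flt3-positive Fscn1-negative cell. Ccr2, which draws cells out of the blood, was lower at 19.4 and 15.4 CPM against 116 and 237 CPM, with Ccr1 and Xcr1 also lower.

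Genes of antigen presentation and uptake were counted next. Of 16 class II genes, 2 were at least 2-fold higher in both libraries and 3 lower, shares near the 7.18% and 13.5% of all genes, with median log2 ratios of -0.24 and -0.33. Cd74 remained among the most abundant transcripts of members, at 7072 and 8260 CPM against 10021 and 9876 CPM, and H2-Ab1 was at 3246 and 3618 CPM against 5193 and 4976 CPM. H2-DMa and H2-DMb1, which load peptide on class II, were lower, at 166 and 104 CPM against 420 and 368 CPM and at 116 and 94.1 CPM against 355 and 389 CPM. March1, the ligase that removes class II from the surface, was lower too, at 13.1 and 3.84 CPM against 73.7 and 118 CPM. H2-Eb2 was higher, at 110 and 177 CPM against 13.0 and 21.2 CPM. Of 23 genes of class I presentation, 6 were higher and 1 lower. The higher ones included Cd1d1, which presents lipids, at 117 and 159 CPM against 9.71 and 6.41 CPM, and Nlrc5, the class I transactivator, at 459 and 653 CPM against 127 and 126 CPM. H2-Q4, H2-Q6 and H2-Q7 were also higher but are near-identical genes whose reads may be exchanged. Of 23 genes of uptake and sensing, 0 were higher and 13 were lower in both libraries, beside 13.5% of all genes, with medians of -1.15 and -1.77. They included the lectin receptors Clec4n and Clec9a and the sensors Tlr2 and Tlr3, and Tlr2 was at 17.5 and 30.7 CPM against 40.1 and 78.4 CPM.

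Of 34 genes of actin, adhesion and migration, 12 were at least 2-fold higher in both libraries and 8 lower, beside 7.18% and 13.5% of all genes. The actin regulators Marcks (1439 and 1383 CPM against 371 and 211 CPM) and Marcksl1 (1127 and 1538 CPM against 227 and 247 CPM), and Cdc42ep3, an effector of CDC42 (251 and 202 CPM against 28.9 and 31.6 CPM), were higher. Itga4, an integrin chain, was higher at 2356 and 1356 CPM against 768 and 321 CPM. Its gut-homing partner Itgb7 was lower at 25.7 and 30.7 CPM against 186 and 269 CPM, and Itgb2, the chain shared by leukocyte integrins, was lower at 24.7 and 17.3 CPM against 129 and 132 CPM. The alpha chains Itgax, Itgae, Itgal and Itgam and the actin regulator Evl were lower in both libraries too.

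Survival, cell cycle and retinoic acid genes were counted in the same way. Of 18 genes of survival and apoptosis, 7 were higher in both libraries and 2 lower, beside 7.18% and 13.5% of all genes. Bcl2l1, which encodes BCL-XL, was at 397 and 202 CPM against 96.8 and 38.5 CPM, and Cflar, an inhibitor of caspase 8, was at 1097 and 653 CPM against 409 and 227 CPM. Bcl2 was lower, at 16.0 and 7.68 CPM against 38.3 and 48.9 CPM. Of 15 cell cycle genes, 0 were higher and 12 lower, with Top2a at 43.7 and 17.3 CPM against 180 and 79 CPM. Mki67 was an exception in this list, at 227 and 102 CPM against 186 and 98.3 CPM, so members were not without it. Aldh1a2, which makes retinoic acid, was at 17.5 and 42.2 CPM against 2.17 and 7.90 CPM, and thinned detection was 4.61% and 11.1% of members. No UMI of Itgb8, an integrin chain that activates TGF-beta, was found in members, which allows up to 1.46 and 5.76 CPM (3 UMIs of each sum).

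**Figure D3:**
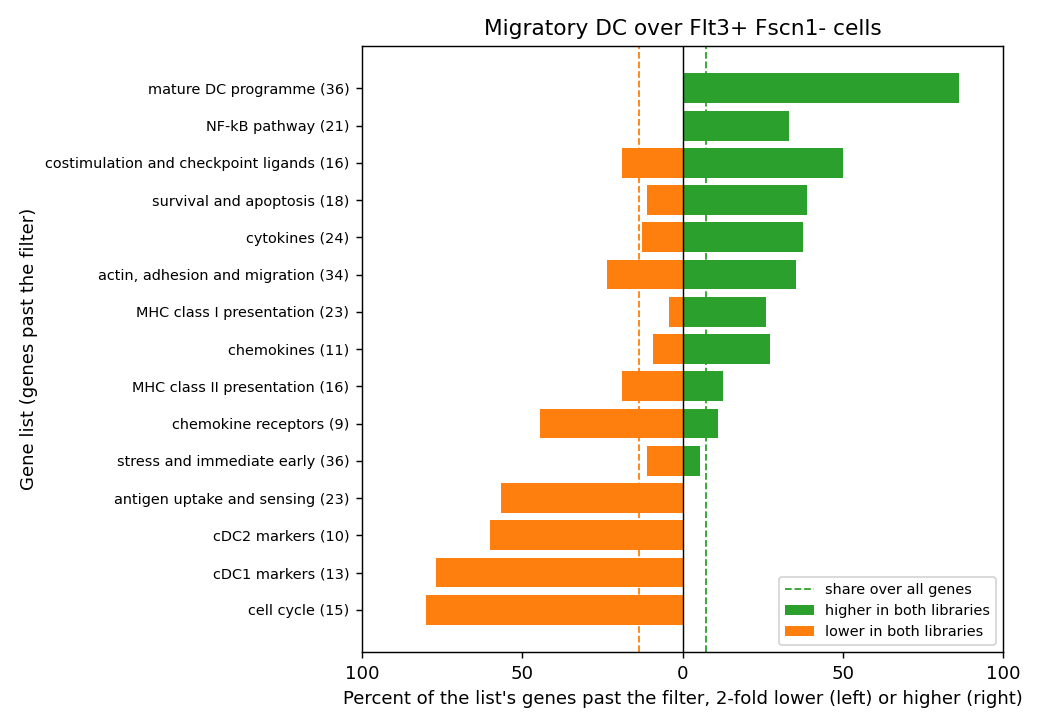
Percent of each list's genes past the filter that were at least 2-fold higher (green, right) or lower (orange, left) in members than in Flt3-positive Fscn1-negative cells in both libraries. Numbers in brackets are genes past the filter, and dashed lines mark the shares over all genes, 7.18% and 13.5%. Mature dendritic cell genes reach farthest right, and cell cycle and cDC1 genes farthest left.

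Several transcripts that were plentiful in Flt3-positive Fscn1-negative cells were near 0 in members. The 10 with the largest negative ratios included Rab7b, a late endosomal GTPase, at 9.70 and 0 CPM against 206 and 88.9 CPM, and Ctnnd2 at 9.70 and 0 CPM against 108 and 169 CPM. The 0 of library Runx3 allows up to 5.76 CPM (3 UMIs of its 520726), so Rab7b was at least 15.4-fold and Ctnnd2 at least 29.3-fold lower there. Hdac9, a histone deacetylase, was at 7.76 and 1.92 CPM against 118 and 137 CPM. Wdfy4, which cross-presentation by cDC1 needs, was at 42.2 and 30.7 CPM against 502 and 302 CPM, and the transcription factor Mef2c at 15.0 and 19.2 CPM against 149 and 226 CPM. Alox5ap, needed to make leukotrienes, was at 38.3 and 11.5 CPM against 356 and 402 CPM. Anxa1, at 15.5 and 7.68 CPM against 161 and 161 CPM, and Ckb, a creatine kinase, at 30.1 and 9.60 CPM against 315 and 288 CPM, behaved alike. Mctp1 (log2 ratio -3.64 and -4.07) and Ank (-2.99 and -3.30) complete the set. All were lower in both libraries.

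Conventional dendritic cells fall into cDC1, which cross-present to CD8 T cells, and cDC2, which prime CD4 T cells. Of 13 cDC1 genes, 10 were at least 2-fold lower in members in both libraries, and of 10 cDC2 genes, 6 were lower, beside 13.5% of all genes. Xcr1, the cDC1 chemokine receptor, was at 12.1 and 0 CPM against 93 and 15.4 CPM. Cd209a, a cDC2 lectin, was at 8.73 and 1.92 CPM against 53.8 and 173 CPM. Sirpa, a surface receptor of cDC2, was not among the lower ones, at 228 and 282 CPM against 71.4 and 156 CPM. Irf8, needed for cDC1, was at 1087 and 824 CPM against 561 and 260 CPM, and Irf4, needed for cDC2, at 67.0 and 74.9 CPM against 30.7 and 58.2 CPM. Both transcription factors were therefore present in members.

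The subsets were then counted in cells thinned to 5000 UMIs, 152 and 45 members and 815 and 433 Flt3-positive Fscn1-negative cells, with 15 and 8 shallower members left out. With any UMI of Xcr1, Clec9a, Cadm1 or Naaa taken as cDC1 genes and of Cd209a, Sirpa, Clec10a, Mgl2 or Itgam as cDC2 genes, cDC1 genes alone were seen in 13 of 152 members (8.55%) and 0 of 45, which allows a share of up to 6.67%. The shares in Flt3-positive Fscn1-negative cells were 46.9% and 13.4%. cDC2 genes alone were seen in 50% and 60% of members, both kinds in 10.5% and 4.44%, and neither in 30.9% and 35.6%. The cDC2 class of members rested on Sirpa. Without Sirpa, a choice made after seeing these classes, a cDC2 gene was seen in 11 of 152 members (7.24%) and 0 of 45, against 28.8% and 60.7% of Flt3-positive Fscn1-negative cells. Naaa, the cDC1 gene most often seen, was detected in 10.5% and 4.44% of members and in 6.15% and 14.5% of T cells, so it was near the level that free RNA can give. Most members therefore could not be placed in a subset from these genes.

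**Figure D4:**
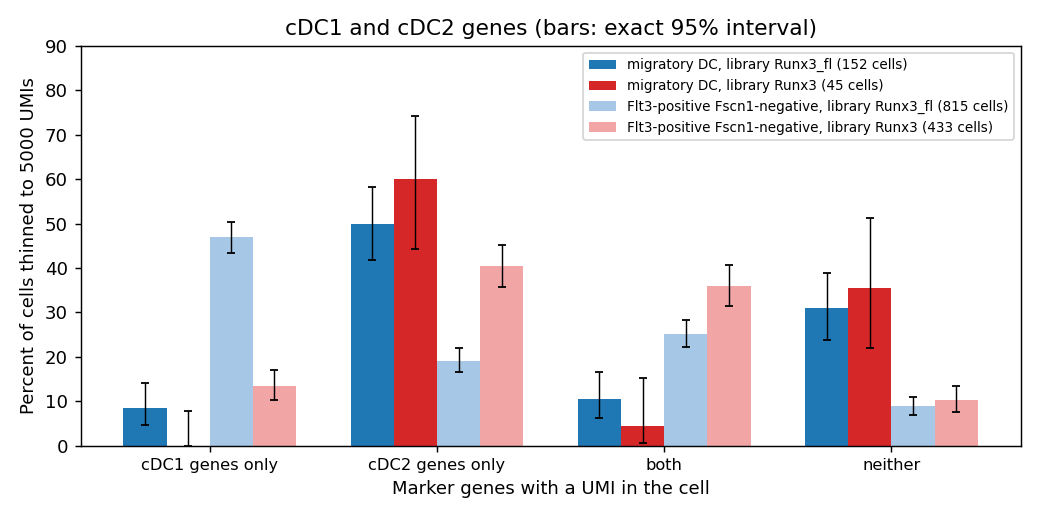
Percent of cells thinned to 5000 UMIs that held cDC1 genes, cDC2 genes, both or neither, with exact binomial 95% intervals, for members (dark) and Flt3-positive Fscn1-negative cells (light) of library Runx3_fl (blue) and Runx3 (red). Members with neither kind are 30.9% and 35.6%, above 8.83% and 10.2% in the cells compared, and without Sirpa 7.24% and 0% of members held a cDC2 gene.

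Levels in these classes were also read within members at full depth. In library Runx3_fl, Ccl22 was at 215 CPM in the 9 members with cDC1 genes alone, 1019 CPM in the 80 with cDC2 genes alone, 1317 CPM in the 47 with both and 648 CPM in the 31 with neither. In library Runx3, Ccl22 was at 281 CPM in the 3 members with cDC1 genes alone, 1862 CPM in the 34 with cDC2 genes alone, 1804 CPM in the 7 with both and 126 CPM in the 9 with neither. Il12b was at 1236, 928, 1102 and 255 CPM in the same 4 classes of library Runx3_fl, where 1 cell held 24.4% of its UMIs, and at 106, 181, 0 and 47.2 CPM in those of library Runx3. Cd274 was at 1152, 1913, 2137 and 1981 CPM in library Runx3_fl, and at 950, 1222, 1804 and 1323 CPM in library Runx3. Irf8 was at 1058, 960, 1141 and 1366 CPM in these classes of library Runx3_fl, and at 281, 983, 750 and 268 CPM in those of library Runx3. Deeper cells enter the class with both more easily, so class and depth cannot be told apart here.

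The members of the libraries were compared with each other last. In members, 609 genes (8.13%) were at least 2-fold higher and 574 (7.66%) at least 2-fold lower in library Runx3, beside 518 (6.92%) and 142 (1.9%) in Flt3-positive Fscn1-negative cells. The members hold fewer UMIs, and of the 609 and 574 genes 517 and 338 had a counting interval clear of 0. Without the highest cell of each gene in each sum, a setting added after seeing the data, the members' counts became 378 higher and 968 lower, so the balance between higher and lower is not firm. Among the lists, the type I interferon response had the most genes that differed: 19 of 28 were higher and 0 lower in library Runx3, in members and in Flt3-positive Fscn1-negative cells alike, with median log2 ratios of 1.41 and 1.40. Irf7, the transcription factor that amplifies interferon, was at 27.7 and 355 CPM in members of libraries Runx3_fl and Runx3 (log2 ratio 3.64, counting interval 3.25 to 4.14) and had a log2 ratio of 2.76 in Flt3-positive Fscn1-negative cells. Xaf1 was at 23.8 and 123 CPM and Ifit3 at 2.43 and 57.6 CPM in libraries Runx3_fl and Runx3, with 1 cell holding 53.3% of Ifit3 UMIs in library Runx3. Isg15 was high in members of both libraries, at 1175 and 1375 CPM against 288 and 480 CPM in Flt3-positive Fscn1-negative cells. With cells holding a Y-linked UMI and no Xist alone, 18 of 28 interferon genes were higher and 0 lower in members. Of 36 stress genes, 7 were at least 2-fold higher in library Runx3 and 0 lower in members, and 12 were higher in it in Flt3-positive Fscn1-negative cells, beside 8.13% and 6.92% of all genes. The near-identical Hspa1a and Hspa1b were at 293 and 1064 CPM and at 258 and 885 CPM in members.

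Ly6c2, a surface protein of monocytes, was at 17.5 CPM in members of library Runx3_fl and 357 CPM in those of library Runx3 (log2 ratio 4.28), and at 175 and 907 CPM in Flt3-positive Fscn1-negative cells (2.36). Gzma, a granzyme of cytotoxic lymphocytes, was at 114 and 1.92 CPM in members (-5.29) and was lower in Flt3-positive Fscn1-negative cells (-3.08). Ly6c2 is itself 1 of the macrophage and monocyte markers summed above, so that sum does not stand apart from it. In members, 1 cell held 28.0% of the Ly6c2 UMIs of library Runx3, and 1 held 33.3% of the Gzma UMIs of library Runx3_fl. The part of other cell types in both differences was not tested. Frmd4a (62.1 and 317 CPM, 2.33) and Kazn (91.2 and 432 CPM, 2.23) were higher in library Runx3. Ifitm1 (896 and 146 CPM, -2.61), Bbs9 (144 and 21.1 CPM, -2.71), Lrmda (194 and 32.6 CPM, -2.53), Dbi (105 and 17.3 CPM, -2.53) and Gm47283 (1050 and 184 CPM, -2.50) were lower. In Flt3-positive Fscn1-negative cells Ifitm1, Lrmda and Dbi had log2 ratios of -0.35, 0.32 and 0.00. Xist had 0 UMIs in the members of library Runx3 and was at least 19.2-fold lower there. Blvrb, Gm13822, Gm26885 and Gm11290 were higher in library Runx3 too, but Blvrb turned to -0.55 without cells carrying other-lineage UMIs, and 1 cell held 66% of Blvrb UMIs and 55.1% of Gm13822 UMIs in library Runx3.

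Cytokine genes were among those that differed. Il12b was at 899 CPM in members of library Runx3_fl and 134 CPM in those of library Runx3 (log2 ratio -2.73, -3.11 to -2.40), and thinned detection was 36.8% and 20.0%. It was lower in Flt3-positive Fscn1-negative cells too (-4.58). Il6 was at 87.8 and 13.4 CPM in members (-2.62, -4.04 to -1.64), with 30.4% of its UMIs in 1 cell of library Runx3_fl. Ccl17 went the other way in members, at 35.4 and 211 CPM (2.54, 2.14 to 3.02), with 26.0% and 26.4% of its UMIs in 1 cell of each library and thinned detection of 7.89% and 15.6%. Ccl22 was at 1020 and 1556 CPM (0.61), and 1 cell held 21.5% of its UMIs in library Runx3. Ccr7 (-0.04) and Fabp5 (-0.01) were at like levels in members of both libraries. Of 15 cell cycle genes, 0 were higher and 8 lower in library Runx3 in members, beside 8.13% and 7.66% of all genes. Their median was -1.14, which turned to 0.47 in cells thinned before the gate. In Flt3-positive Fscn1-negative cells 0 were higher and 3 lower, beside 6.92% and 1.9% of all genes, with a median of -0.66.

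**Figure D5:**
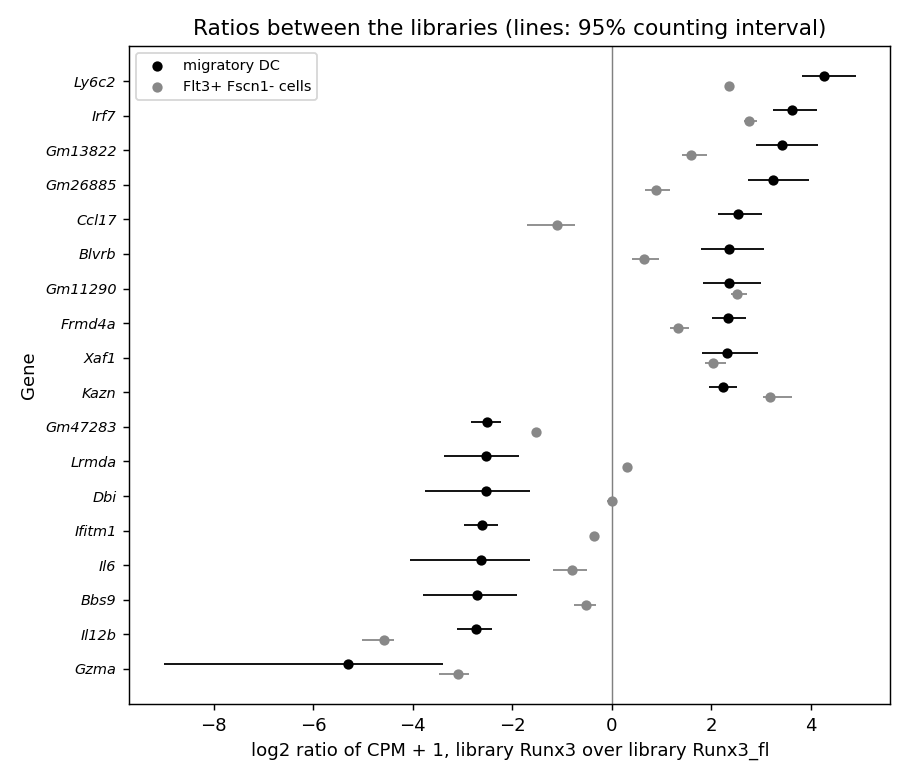
Log2 ratio of CPM plus 1, library Runx3 over library Runx3_fl, for 18 of the genes with the largest ratios in members (Xist is not drawn), with 95% counting intervals. Black points are migratory dendritic cells and grey points Flt3-positive Fscn1-negative cells. Irf7 and Xaf1 lie to the right in both populations, and Ccl17 lies on opposite sides of 0.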

How the data were processed

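Single-cell RNA was measured in 2 libraries of mouse colon immune cells. The deposited files are filtered UMI count matrices that the authors made with Cell Ranger 7.1.0, per the file headers, on build mm10, per the labels, which also list Seurat 4. UMI counts were used as deposited, 146204416 UMIs in library Runx3_fl and 75478164 in library Runx3, with median depths of 9573 and 5731 UMIs over kept cells.

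Kept cells followed the study's limits of 200 to 6000 genes and at most 15% mitochondrial UMIs. The study treated the upper gene limit as a doublet filter. No doublet caller was run, and the limits on Cd3e, Cd79a and C1q genes were the only further guard. The members and gene lists (34 lists, 507 of 512 genes in the files) were chosen with earlier results of these data known.

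UMIs were summed per library and population and given as CPM with exact Poisson 95% intervals. Ratios were log2 of CPM plus 1, with exact conditional binomial intervals. Genes at a mean of 10 CPM or more over the 4 sums were compared, and a gene counted as higher or lower past 2-fold, in both libraries where members were set against Flt3-positive Fscn1-negative cells. Shares of cells carry exact Clopper-Pearson intervals, and detection was compared in cells thinned to 5000 UMIs, with T cells (a Cd3e UMI and none of Cd79a) as a gauge of free RNA. UMIs come from single molecules, and intervals and floors of 3 UMIs cover counting error only.

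The genes named were the rule genes, examples from each list (largest ratios or a defining role), the 15 largest positive and 10 largest negative ratios of members over Flt3-positive Fscn1-negative cells at 50 CPM and 25% detection, ranked by the smaller ratio, and the 10 largest in each direction between libraries at 50 CPM and 10% detection. Mki67, Itgb8, Ifit3, Cd83 and Map3k14 and the cDC2 class without Sirpa were taken up after their values were seen. Some genes that the rule names are not reported here. The alternatives were other limits on cells and genes, stricter gates, another comparator, thinning, another pseudocount, centring, means over cells, cells with Y-linked UMIs alone and sums without the highest cell, the last 2 added after seeing the data. The procedure was tested on simulated Poisson counts with no spread between cells. That test cannot show how calls and intervals behave where a single cell holds much of a gene's UMIs. Python 3.11.15, numpy 2.4.6, scipy 1.17.1 and pandas 2.3.3 were used.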

Additional observations from a re-analysis of the deposited data

Results flagged for a closer look

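The 6 genes given here passed 2-fold in opposite directions in the groups compared. They are a selection and not a full count, and other genes took opposite signs too. The differences between the ratios were not tested, since each rests on 1 library per label.

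Ccl17, a chemokine of mature dendritic cells, was higher in library Runx3 than in library Runx3_fl in members, with a log2 ratio of 2.54, and lower in Flt3-positive Fscn1-negative cells, at -1.10. In members 1 cell held 26.0% and 26.4% of the Ccl17 UMIs. The ratios of the cDC2 lectin genes Clec10a and Cd209a had the opposite signs, but rested on few UMIs in members. Clec10a had -2.42 in members, from 4.37 and 0 CPM, and 1.16 in Flt3-positive Fscn1-negative cells. The 0 of library Runx3 allows up to 5.76 CPM, above 4.37 CPM, so a lower level of Clec10a in its members is not shown. Cd209a had -1.74 in members, from 8.73 and 1.92 CPM, and 1.67 in Flt3-positive Fscn1-negative cells. Its level in members of library Runx3 came from 1 UMI. The ratio of Cd209a in members turned to 3.14 in thinned cells and to 0.14 with at least 2 UMIs of Ccr7 and of Fscn1.

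The other 3 genes mark cells other than dendritic cells. S100a8, a neutrophil gene, had a log2 ratio of members over Flt3-positive Fscn1-negative cells of 1.22 in library Runx3_fl, where 1 member held 83.7% of its UMIs, and of -4.24 in library Runx3. The stromal genes Col3a1 (-3.75) and Dcn (-2.25) were lower in library Runx3 in members, and higher in Flt3-positive Fscn1-negative cells (1.54 and 1.70). A single member held 93.7% of the Col3a1 UMIs of library Runx3_fl. Without the highest cell of each gene in each sum, Dcn turned to 0.31 in members, and S100a8 to -0.90 in library Runx3_fl.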

How the results depend on the processing

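No paired analysis was possible because each label has 1 library and no test was run, and no replicate could be left out. Values that moved are given here with their setting, and the cause was not tested unless the setting itself fixes it. The share of members among kept cells was 1.19% in library Runx3_fl with at least 2 UMIs of Ccr7 and of Fscn1, and 1.10% and 0.380% in libraries Runx3_fl and Runx3 without cells carrying other-lineage UMIs. In library Runx3 it was 1.00% among cells of at least 5000 UMIs and 1.13% in thinned cells. Of members plus Flt3-positive Fscn1-negative cells, members were 22.3% and 14.7% in thinned cells. They were 13.5% and 5.42% beside every Flt3-positive cell without Fscn1, and 12.4% in library Runx3 without other-lineage UMIs. Under each setting run on both libraries the share was lower in library Runx3.

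Genes lower in members in both libraries numbered 579 with 10 CPM added, 660 after centring, 370 at 50 CPM or more and 1846 with no filter, and genes higher numbered 354 at 50 CPM or more. Between libraries, genes higher and lower in Runx3 numbered 261 and 220 with 10 CPM added, 144 and 151 at 50 CPM or more, 1978 and 2124 with no filter, and 378 and 968 without each gene's highest cell, while 1096 were higher in thinned cells.

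Signs turned for these log2 ratios. Without an upper gene limit, the epithelial and stromal median was -0.082 (members over Flt3-positive cells, Runx3_fl) and 5.46 (Runx3 over Runx3_fl). Without other-lineage UMIs, the plasma cell median was 0.42 and S100a8 -0.52 (members over Flt3-positive cells, Runx3_fl), and Blvrb was -0.85 in library Runx3 and -0.55 between libraries. In thinned cells the library ratios were 0.47 for the cell cycle median, 1.75 for Alox5ap, 3.14 for Cd209a, 0.56 for Ckb and 0.89 for Top2a, and Cxcr5 was -0.18 in members of Runx3, or -0.082 beside every Flt3-positive cell. Cd209a was 0.14 between libraries with at least 2 UMIs of Ccr7 and Fscn1. The chemokine median in Runx3 was 0.43 at 50 CPM or more. Without the highest cell, Dcn was 0.31 between libraries and S100a8 -0.90 in Runx3_fl. Over all settings 3843 of 3964 values of named genes stayed on the same side of 2-fold. That number includes 258 values at 50 CPM or more and 294 with no filter. These 2 settings change which genes are counted and not their ratios, so those values could not move. The 53 members of library Runx3, with 520726 UMIs, limit every comparison between libraries.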
